A study of Mus musculus with 9 samples.

Results

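Crisp1 and Crisp4 encode cysteine-rich secretory proteins, which the epithelium of the epididymis releases into the duct and which bind to passing sperm. Both genes were taken by their symbols, and both are among the 2462 genes of the deposited table. Messenger RNA of the caput, the head of the epididymis, was sequenced from 14-week-old mice in 9 libraries. The EDL group held 3 libraries from mice labelled wild-type whose efferent ducts had been ligated, an operation that stops testicular fluid and sperm from reaching the epididymis. The W/Wv group held 3 libraries from untreated mice of that genotype, which carry mutant Kit alleles and whose testes are nearly devoid of germ cells. The WT group held 3 libraries from untreated wild-type mice. The labels name no sham operation, time after ligation or genetic background, and they do not say whether the libraries of a group came from separate animals. Effects of surgery therefore cannot be told apart from those of the block, and the p-values cover only differences among libraries, which may be technical.

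CRISP proteins belong to the CAP superfamily and join a CAP domain to a cysteine-rich domain. In mice, CRISP1 associates with the sperm surface in the epididymis and takes part in binding to the egg, and CRISP4 is known to act on the ion channel TRPM8 of sperm. Epididymal Crisp genes are known to respond to androgens, and the most proximal caput also depends on testicular factors that arrive through the lumen, which is called lumicrine regulation.

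Crisp1 (NCBI gene 11571) lies on chromosome 17, 40293758 to 40319207, and Crisp4 (NCBI gene 78081) on chromosome 1, 18114889 to 18145902, in GRCm38.p6 coordinates, the build that mm10 names. Both are on the minus strand. Because both genes were lower in both models, the stretch around each start is shown, from 250 bases before to 30 after it, 5′ to 3′, from RefSeq on GRCm38.p6. Capitals mark matches to the searched motifs AGAACA, the core of the androgen response element, and GGAAG, the ETS core, on either strand. The windows are chr17:40319178-40319457 for Crisp1 and chr1:18145873-18146152 for Crisp4.
Crisp1: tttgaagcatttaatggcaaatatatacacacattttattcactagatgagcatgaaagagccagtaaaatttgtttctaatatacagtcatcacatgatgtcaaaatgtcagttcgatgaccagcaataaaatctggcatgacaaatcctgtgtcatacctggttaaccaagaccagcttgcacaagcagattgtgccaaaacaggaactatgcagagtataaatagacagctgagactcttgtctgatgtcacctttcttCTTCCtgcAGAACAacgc
Crisp4: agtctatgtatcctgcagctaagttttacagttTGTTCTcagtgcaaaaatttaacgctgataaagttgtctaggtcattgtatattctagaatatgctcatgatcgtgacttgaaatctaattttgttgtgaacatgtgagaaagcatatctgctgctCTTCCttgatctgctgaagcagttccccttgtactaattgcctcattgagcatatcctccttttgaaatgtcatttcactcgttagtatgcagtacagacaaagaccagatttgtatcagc

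Each window held 1 match to AGAACA and 1 to GGAAG. In Crisp1 both lay downstream of the start, with first bases at 21 and 13, and in Crisp4 both lay upstream, at -217 and -91, where base 1 is the start itself. AGAACA or its reverse complement occurs in 17.8% of the 32851 promoter windows of this length and GGAAG in 68.8%, and the searched motifs do not overlap in the windows shown. The motifs TGACGTCA (CRE, in 1.74% of windows), TGTGGT (RUNX, 15.6%) and TGTTTAC (forkhead, 3.49%) had no match in either window. The windows of the 2 genes had the same base at 66 of 280 places. The Crisp1 window matched that of its neighbour and paralog Crisp3 at 267 of 280.

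Crisp3, a gene of salivary and other exocrine glands, lies beside Crisp1 on chromosome 17, 40221777 to 40242288, and was not analysed here. Close copies can split reads, so the transcripts were compared in windows of 50 bases. Of 1367 such windows in the Crisp1 transcript of GENCODE M21, 33 (2.41%) were also in the Crisp3 transcript, and the longest run in common was 70 bases. None of the 1367 was in a Crisp2 or Crisp4 transcript, and none of the 1203 windows of the longest coding Crisp4 transcript was in one of the other 3 genes. No source used here gives the read length.

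Each library had between 3536246 and 4793224 reads in the table, as recovered from the deposited normalized counts. Levels are given as FPKM, a count scaled by transcript length and library size, as deposited by the authors. Gpx5, a secreted peroxidase that defines the caput, had 23125 to 26828 FPKM as group means, so this marker of the labelled tissue was abundant in every group. No marker of basal cells, leukocytes, fibroblasts, smooth muscle or endothelium was among the genes analysed, so the make-up of the tissue cannot be read from these lists, and in tissue RNA fewer cells of a type and less RNA per cell cannot be told apart. Of 12 sperm and spermatid markers, 10 were in the table, and their summed level was 14.6 to 15.9 FPKM in EDL, 14.0 to 15.8 FPKM in W/Wv and 141 to 147 FPKM in WT, with 5 of the 10 at 0 in each model. Of the 8 that could be tested, 6 reached 1 FPKM in WT libraries alone, so the filter required them to differ and their calls are not counted. Libraries of 1 group differed by a chi-square per gene of 3.15 to 7.34 in EDL, 4.87 to 6.66 in W/Wv and 13.4 to 24.9 in WT. WT library 3 was the farthest from the other WT libraries, so results against WT are also given without it.

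Crisp1 was among the genes of the caput that fell furthest in log2(FPKM + 1) after duct ligation. Crisp4 stayed at 46.0% of its WT mean. Crisp1 had 1.67, 1.92 and 1.75 FPKM in the EDL libraries, against 1654, 1328 and 1513 FPKM in the WT libraries. Every EDL library lay far below every WT library, and the mean in EDL was 0.119% of that in WT, 843-fold lower. The change was -9.07 on the log2(FPKM + 1) scale, on which differences were tested (SE 0.20, limma with Benjamini-Hochberg adjusted p = 1.5e-09). Only 3 of the 2013 genes tested had a more negative change. On this scale a gene cannot fall by more than its WT level allows, so the rank favours genes abundant in WT. Behind the EDL values stood 47, 45 and 49 reads, against 39252, 37359 and 31534 in WT, so each ligated library had reads counted to Crisp1. Where in the gene they lie, and whether any came from the stretch shared with Crisp3, was not examined. The 95% Poisson intervals of the 3 EDL values, which cover counting error only, overlapped.

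Crisp4 had 91.6, 102 and 104 FPKM in the EDL libraries, against 224, 178 and 243 FPKM in the WT libraries. The groups did not overlap, and the lowest WT library, number 2, was still above the highest EDL library. The change was -1.10 on the log2(FPKM + 1) scale (SE 0.11, limma adjusted p = 6e-06), a mean 2.17-fold lower in EDL, and 201 of the genes tested had a more negative one. Reads numbered 1943 to 2377 in EDL and 4087 to 4338 in WT. Both genes thus passed the test as lower, where 35.9% of all genes tested did. Both had groups without overlap, lower in EDL, where 37.6% of all genes tested did. These and later shares, ranks and medians cover the genes of the deposited table, whose choice is not stated, and not all genes of the caput. Without WT library 3 the changes were -9.06 for Crisp1 in EDL versus WT (limma adjusted p = 2.8e-07) and -1.01 for Crisp4 in EDL versus WT (limma adjusted p = 2.6e-05).

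**Figure D1:**
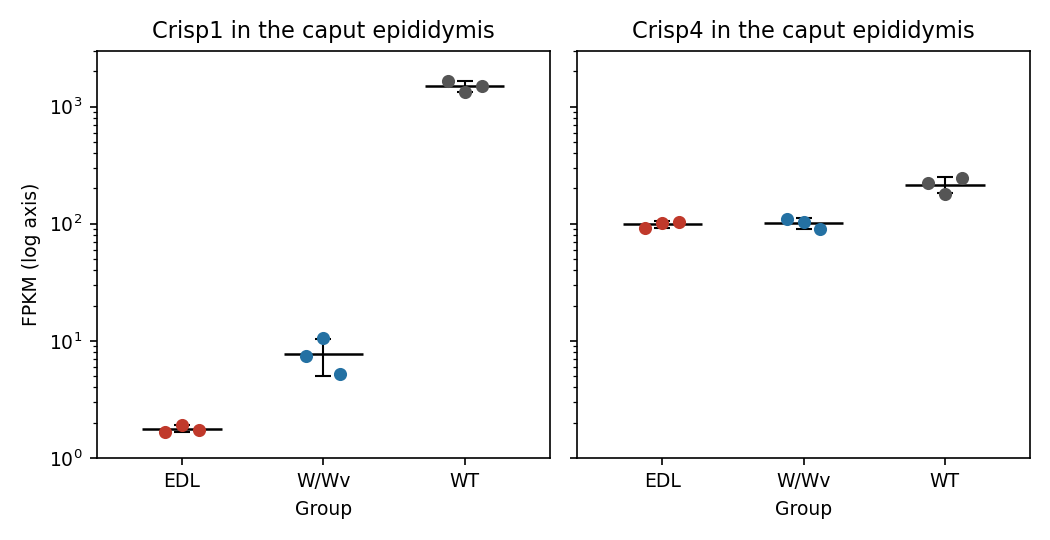
FPKM of Crisp1 and Crisp4 on a log axis in each of the 9 libraries, by group (EDL, W/Wv, WT); points are libraries, lines group means and bars the SD (n = 3 each). Crisp1 sits near 1.78 FPKM in EDL, 7.68 in W/Wv and 1498 in WT, while Crisp4 sits near 99.0 FPKM in EDL, 101 in W/Wv and 215 in WT.

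In W/Wv caput, which had no operation, Crisp1 was again far below WT and Crisp4 was again lower by a factor near that in EDL. Crisp1 had 7.34, 10.5 and 5.20 FPKM in the W/Wv libraries, against the 1328 to 1654 FPKM of WT. The mean was 0.513% of that in WT, 195-fold lower, and every W/Wv library lay below every WT library. The change was -7.47 on the log2(FPKM + 1) scale (SE 0.20, limma adjusted p = 5.2e-09), and 4 of the genes tested had a more negative one. This rank, too, depends on the WT level. Crisp4 had 111, 103 and 89.9 FPKM in the W/Wv libraries, against 178 to 243 FPKM in WT, and the groups did not overlap. Its mean was 47.0% of that in WT, with a change of -1.08 (SE 0.11, limma adjusted p = 7.7e-06). Here 35% of all genes tested passed as lower, and 36.3% had groups without overlap in that direction. Without WT library 3 the changes were -7.46 for Crisp1 in W/Wv versus WT and -0.98 for Crisp4 in W/Wv versus WT (limma adjusted p = 7.4e-07 and 3.4e-05). Both comparisons use the same WT libraries.

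The models were then set against each other. Crisp1 was higher in W/Wv than in EDL in every library, at 5.20 to 10.5 FPKM against 1.67 to 1.92 FPKM, a ratio of means of 4.32. The difference was 1.60 on the log2(FPKM + 1) scale (SE 0.20, limma adjusted p = 0.0014), and 3 genes had a larger one. In this comparison 6.95% of those tested were higher in W/Wv by this test, and 19% had groups without overlap in that direction. Because the EDL level is close to the pseudocount of 1 FPKM, the size of this difference depends on the scale: it was 0.58 with a pseudocount of 10 (limma adjusted p = 0.0040) and 2.14 by edgeR on the recovered reads (adjusted p = 0.00061).

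Crisp4 did not pass this test, at 101 ± 10.5 FPKM in W/Wv and 99.0 ± 6.49 FPKM in EDL (SD, n = 3 each). The 2 groups overlapped, the W/Wv libraries spanning 89.9 to 111 FPKM and the EDL libraries 91.6 to 104 FPKM. The difference was 0.03 on the log2(FPKM + 1) scale, with a 95% interval of -0.23 to 0.28, or 0.855-fold to 1.21-fold (limma adjusted p = 0.91). Levels of Crisp1 therefore fell into the order EDL, W/Wv, WT from low to high, with each step past the test, whereas for Crisp4 the lower levels of EDL and W/Wv did not differ beyond their spread.

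**Figure D2:**
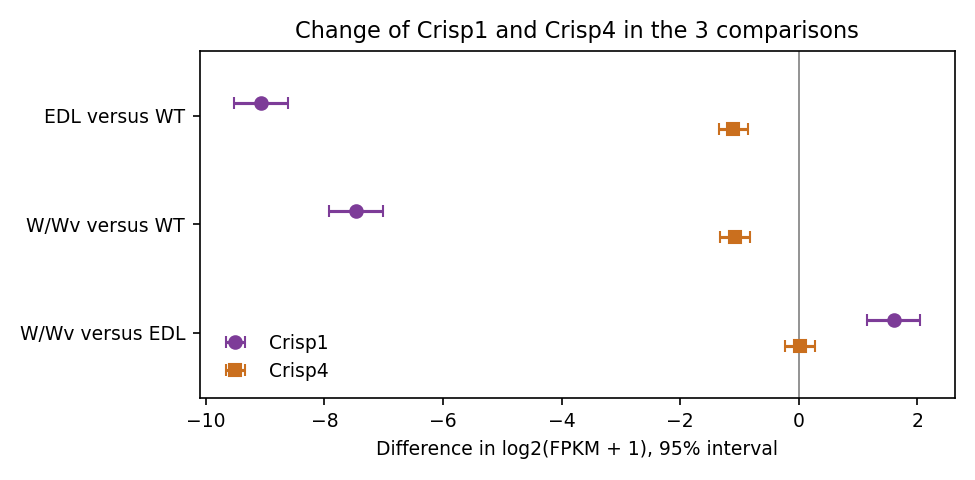
Differences in log2(FPKM + 1) of Crisp1 (circles) and Crisp4 (squares) in EDL versus WT, W/Wv versus WT and W/Wv versus EDL, with 95% intervals from limma. The Crisp1 values lie at -9.07, -7.47 and 1.60, and the Crisp4 values at -1.10, -1.08 and 0.03, the last with an interval across 0.

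The W/Wv libraries differed among themselves in what remained of Crisp1. The coefficient of variation was 34.7% in W/Wv, against 7.18% in EDL and 10.9% in WT. The 161, 246 and 121 reads of W/Wv libraries 1, 2 and 3 gave 95% Poisson intervals of 6.25 to 8.57, 9.23 to 11.9 and 4.32 to 6.21 FPKM, which did not overlap. Genes in general also differed by more than counting error between these libraries, with the chi-square per gene given above. Library 2, the highest in Crisp1, was also the highest in 9230104L09Rik, a transcript among those nearest to Crisp1 in profile, at 23.5 FPKM against 7.16 and 5.03 FPKM in libraries 1 and 3, and without that library its difference in W/Wv versus EDL was -0.0043, where it was 0.60 with it (limma, neither passed). The other genes nearest to Crisp1 differed in this. In library 2 against libraries 1 and 3, Cst8 was the highest, at 0.931 against 0.773 and 0.833 FPKM. Ovch2 was the lowest, at 22.36 against 23.89 and 22.45 FPKM, and Shc4 lay between, at 0.438 against 0.492 and 0.384 FPKM. Dapl1 was at 0 in libraries 1 and 2 and at 0.141 FPKM in library 3. Lcn8, a lipocalin with 17981 FPKM in WT, had 2.76 FPKM in library 2 against 2.21 and 2.67 FPKM in libraries 1 and 3. Without W/Wv library 2, the difference of Crisp1 in W/Wv versus EDL was 1.37 (limma adjusted p = 0.0003). Crisp4 varied by 10.4% in W/Wv, 6.56% in EDL and 15.6% in WT.

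The balance of the 2 genes within a library was reversed in the models. In EDL libraries 1, 2 and 3, Crisp4 stood at 54.9, 52.9 and 59.5 times the FPKM of Crisp1, and in the W/Wv libraries at 15.1, 9.76 and 17.3 times. In the WT libraries Crisp1 was the higher, at 7.38, 7.45 and 6.22 times the FPKM of Crisp4. On the log2(FPKM + 1) scale, Crisp1 minus Crisp4 was -5.17 ± 0.07 in EDL, -3.60 ± 0.37 in W/Wv and 2.80 ± 0.15 in WT (SD, n = 3 each). The change of Crisp1 minus that of Crisp4 was therefore -7.97 in EDL versus WT, -6.40 in W/Wv versus WT and 1.57 in W/Wv versus EDL. The groups did not overlap in any of the 3 comparisons. The exact two-sided permutation p was 0.1 in each, which is the smallest that 3 libraries against 3 allow, so these differences could not pass a threshold of 0.05.

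**Figure D3:**
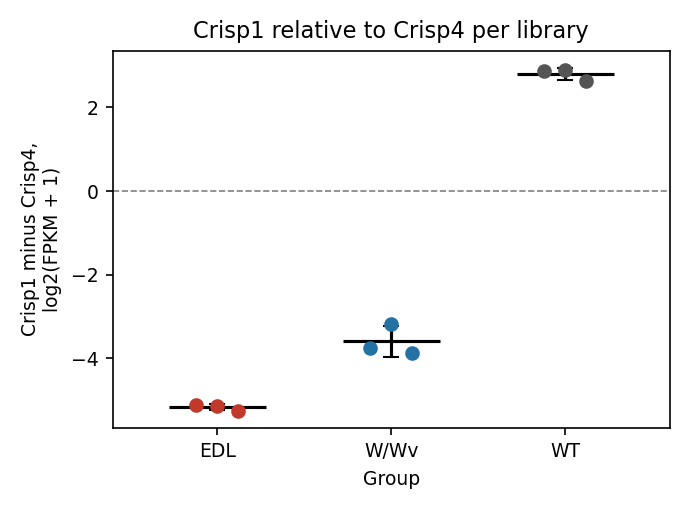
Crisp1 minus Crisp4 in log2(FPKM + 1) within each library, by group; points are libraries, lines group means and bars the SD (n = 3 each). Values lie below 0 in EDL, between -5.25 and -5.12, and in W/Wv, between -3.87 and -3.17, and above 0 in WT, between 2.63 and 2.89.

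By mean FPKM, Crisp1 ranked 1738 of 2462 genes in EDL, 1090 in W/Wv and 10 in WT. Crisp4 ranked 90 in EDL, 88 in W/Wv and 45 in WT, so it stayed among the abundant transcripts of this table in every group. As a share of the reads in the table, Crisp1 took 9.81 to 11.6 reads per 1e6 in EDL, 32.5 to 65.0 in W/Wv and 7794 to 9202 in WT, and Crisp4 took 439 to 501 in EDL, 457 to 560 in W/Wv and 853 to 1109 in WT.

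Of the 15 genes of the CAP superfamily list, Crisp2 was the only other one analysed. Crisp2 encodes a protein of the sperm acrosome and tail, is made in the testis, and lies on chromosome 17, 40764734 to 40794146, within 446 kb of Crisp1. It was low throughout, at 0, 0 and 0.173 FPKM in EDL, 0.0443, 0.0829 and 0 FPKM in W/Wv and 1.37, 1.78 and 2.04 FPKM in WT. Its reads numbered 5 over the EDL libraries, 3 over the W/Wv libraries and 130 over the WT libraries. It passed the test as lower in both models (limma adjusted p = 3.6e-07 in EDL and 3.3e-07 in W/Wv), but it entered the test through WT alone, where it is high, so a difference was required of it. The sperm and spermatid markers given above were lower in the same libraries, and their part in the Crisp2 values was not tested. With Crisp2 entering this way, no count or median over the 3 CAP genes against WT is given. In W/Wv versus EDL, 1 of the 3, Crisp1, passed as higher, where 6.95% of all genes tested did, and Crisp4 and Crisp2 did not pass.

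Around Crisp1, the table held 2 of the 12 other protein-coding genes within 500 kb, Crisp2 and Pgk2, a glycolytic enzyme of spermatids that is also among the sperm markers. Pgk2, which was too low to test, had 0 reads in EDL, 0 in W/Wv and 55 in WT, at least 19.2-fold lower in EDL and at least 15.8-fold lower in W/Wv where the models are set at 3 reads summed over the group, a bound that covers counting error only. Around Crisp4, none of the 4 other protein-coding genes within 500 kb was analysed.

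The genes nearest in profile were found by the root mean square distance over the 9 libraries between log2(FPKM + 1) values, each gene centred on its own WT mean. Nearest to Crisp1 were Dapl1 (distance 1.59), 9230104L09Rik (1.61), the cystatin gene Cst8 (1.85), the secreted protease gene Ovch2 (2.30) and Shc4 (2.62), which encodes a signalling adaptor. These distances are large, but on this scale a gene cannot fall by more than its WT level allows. They therefore depend on WT levels and cannot show alone how closely a gene followed Crisp1. As a share of the WT mean, Crisp1 kept 0.119% in EDL and 0.513% in W/Wv. In the same order, Dapl1 kept 0.227% and 0.0429%, and 9230104L09Rik 0.0668% and 0.124%. Cst8 kept 0.0433% and 0.0331%, and Shc4 0.440% and 0.957%. The FPKM of Ovch2 are given below. None of the 5 passed the test of W/Wv versus EDL that Crisp1 passed, but for Shc4 this depends on the processing: it had 0.438 ± 0.0537 FPKM in W/Wv and 0.201 ± 0.0508 FPKM in EDL (SD, n = 3 each; limma adjusted p = 0.059), and it passed as higher in W/Wv by edgeR on the recovered reads (1.16, adjusted p = 0.0017). Shc4 passed under 6 of the 17 alternatives that gave it a value. Dapl1 and Shc4 stayed below 1 FPKM in both models, where this scale compresses differences, and entered the test through WT alone. For 9230104L09Rik the 95% interval of the difference, -0.77 to 1.96, included the 1.60 of Crisp1. The differences between these genes and Crisp1 in W/Wv versus EDL were not tested. Dapl1 had 0.116, 0.279 and 0.350 FPKM in EDL, 0, 0 and 0.141 FPKM in W/Wv and 95.4 to 124 FPKM in WT, and it passed as lower in W/Wv than in EDL with a pseudocount of 0.1 (limma adjusted p = 0.043). Ovch2 kept 22.8 FPKM in EDL and 22.9 FPKM in W/Wv, against 1143 FPKM in WT.

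Nearest to Crisp4 were Pdcd4, an inhibitor of translation (distance 0.10), Hhipl1 (0.12), the sulfotransferase gene Gal3st3 (0.12), the dynein subunit gene Dync1li2 (0.12) and the ubiquitin ligase gene Rnf128 (0.13). Pdcd4 had 37.8 ± 1.29 FPKM in EDL, 40.4 ± 3.30 in W/Wv and 86.0 ± 5.88 in WT, and Rnf128 had 105 ± 0.678, 124 ± 6.55 and 241 ± 14.1 FPKM in the same order (SD, n = 3 each). Unlike Crisp4, Rnf128 passed as higher in W/Wv than in EDL (0.23, limma adjusted p = 0.025), a call lost under 6 of the 20 alternatives, and the difference between the 2 genes in this was not tested. Dync1li2 had 21.5 ± 1.42 FPKM in EDL, 22.3 ± 1.08 in W/Wv and 45.9 ± 1.31 in WT. Hhipl1 and Gal3st3 are alike only on this scale, which compresses low values: Hhipl1 had 0.204 FPKM in EDL and 0.280 in W/Wv against 1.49 in WT, 13.7% and 18.8% of WT, and Gal3st3 26.5% and 22.0%, where Crisp4 kept 46.0% and 47.0%. Both entered the test through WT alone.

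**Figure D4:**
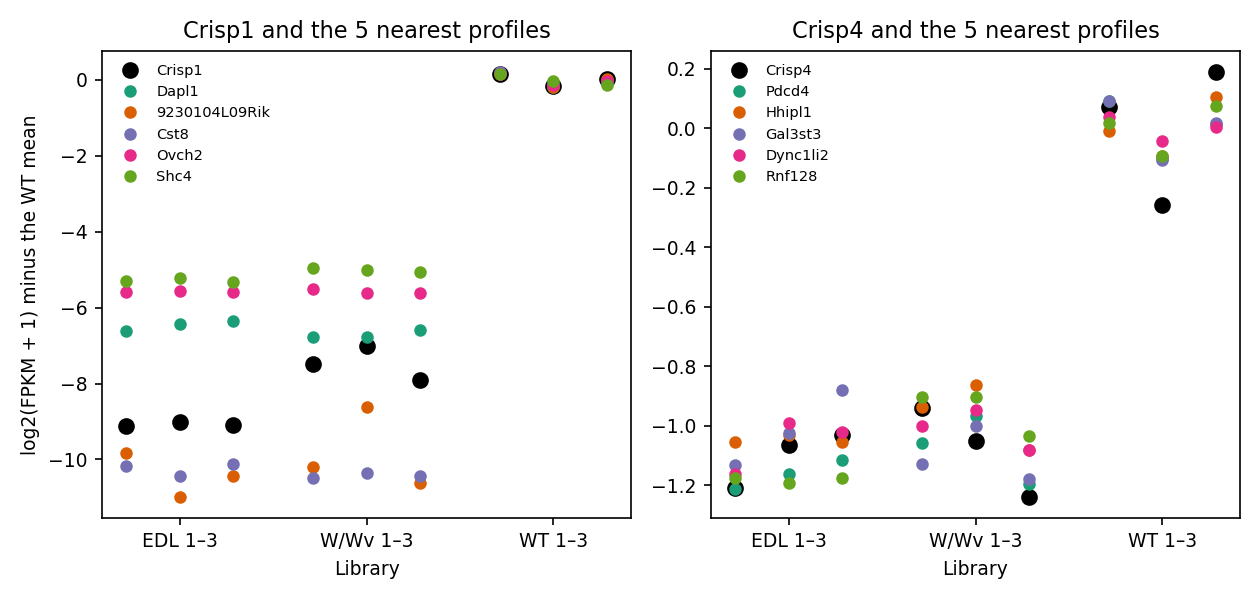
Profiles of Crisp1 (left) and Crisp4 (right), in black, with the 5 genes nearest to each, as log2(FPKM + 1) minus the WT mean for libraries 1 to 3 of EDL, W/Wv and WT. Crisp1 lies at -9.07 on average in EDL and -7.47 in W/Wv, between Dapl1 and Cst8, and Crisp4 lies at -1.10 and -1.08 among its 5 neighbours, on a much narrower axis.

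Secreted proteins that meet sperm in the epididymis did not move as one group. Of 23 on the list, 8 were tested, Crisp1 and Crisp4 included. In EDL 4 rose, 3 fell and 1 did not pass, with a median change of 0.32 beside 0.05 over all genes tested, of which 39.4% rose and 35.9% fell. In W/Wv 4 rose and 4 fell, with a median of 0.22 beside 0.02 over all genes tested, of which 35.3% rose and 35% fell. Those that fell were Crisp1, Crisp4 and Lcn8 in EDL, and the same genes with Gpx5 in W/Wv. The members thus enter both the counts and the medians, and apart from them Lcn8 alone fell in EDL. Lcn8 fell, to 3.66 ± 0.947 FPKM in EDL and 2.55 ± 0.293 FPKM in W/Wv, against 17981 ± 2689 FPKM in WT. Lcn5, another lipocalin, rose to 9752 ± 169 FPKM in EDL and 8035 ± 1270 FPKM in W/Wv, against 308, 186 and 1613 FPKM in WT libraries 1, 2 and 3. The third of these stood apart in Lcn5 and also in Defb15, a beta-defensin gene, at 872 FPKM against 252 and 138, while in Crisp4 it was the highest of the WT libraries and in Crisp1 it lay between the other two. Cuzd1, a membrane protein with CUB and zona pellucida domains, rose to 1873 ± 9.64 FPKM in EDL and 1854 ± 79.5 FPKM in W/Wv, against 1177 ± 109 FPKM in WT. Gpx5 had 26327 ± 1203 FPKM in EDL, 23125 ± 795 FPKM in W/Wv and 26828 ± 1869 FPKM in WT, and passed the test in W/Wv alone (limma adjusted p = 0.79 in EDL and 0.040 in W/Wv, a call lost under 9 of the 20 alternatives). In W/Wv versus EDL, 1 of the 8, Crisp1, was higher, 1 was lower and 6 did not pass, with a median of -0.10 beside 0.00 over all genes, of which 7% were lower. The lower one was Npc2, a cholesterol-binding secreted protein named here after its values were seen, at 444 ± 34.9 FPKM in W/Wv and 540 ± 7.01 FPKM in EDL (SD, n = 3 each; limma adjusted p = 0.031, a call lost under 7 alternatives).

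Few genes of the pathways known to act on caput genes were in the table. Of 12 genes of the androgen receptor and steroid metabolism, 2 were tested. Srd5a1, which makes dihydrotestosterone, fell to 2.76 ± 0.347 FPKM in EDL and 2.37 ± 0.265 FPKM in W/Wv, against 32.4 ± 3.78 FPKM in WT (limma adjusted p = 1.9e-10 and 1.4e-10). Fkbp5, a chaperone gene induced by the androgen receptor in many tissues, had 182 ± 2.63 FPKM in EDL, 189 ± 2.35 FPKM in W/Wv and 169 ± 9.22 FPKM in WT. It did not pass in EDL (adjusted p = 0.080, limma) and rose in W/Wv (adjusted p = 0.019, limma), a call lost under 4 of the 20 alternatives. The list medians, each the midpoint of these 2 genes, were -1.52 in EDL and -1.57 in W/Wv, beside 0.05 and 0.02 over all genes. They describe neither gene, since Srd5a1 fell (-3.15 in EDL, -3.31 in W/Wv) and Fkbp5 did not (0.11 in EDL, not passed, and 0.17 in W/Wv). In W/Wv versus EDL, where neither gene passed, the median was -0.05.

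Of 20 genes of lumicrine and ROS1-ERK signalling, 3 were in the table and 2 were tested. Ovch2, the protease that acts downstream of the lumicrine signal in mice, fell in both models with the values given above (limma adjusted p = 1.2e-13 in each). Dicer1, which processes microRNAs, rose to 12.4 ± 0.455 FPKM in EDL and 13.5 ± 0.264 FPKM in W/Wv, against 9.04 ± 0.368 FPKM in WT (limma adjusted p = 2.5e-05 and 3.2e-06). Nell2, which encodes the lumicrine ligand made by testicular germ cells, had 0.218 FPKM in EDL, 0.496 in W/Wv and 0.101 in WT and was too low to test. Neither of the 2 tested genes passed in W/Wv versus EDL (list median 0.06). The list medians against WT were -2.58 in EDL and -2.52 in W/Wv, beside 0.05 and 0.02 over all genes. Each is the midpoint of Ovch2 and Dicer1, which went opposite ways (-5.58 and 0.41 in EDL, -5.58 and 0.53 in W/Wv), and describes neither.

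Of 11 genes on a list of ion channels and receptors of sperm, chosen as candidate CRISP partners, 1 was tested. No link of the genes below to CRISP1 or CRISP4 was tested. Catsperg1, an auxiliary subunit of the sperm calcium channel CatSper, had 2.32, 2.69 and 2.75 FPKM in EDL, 1.34 to 1.99 FPKM in W/Wv and 0.608, 0.949 and 0.831 FPKM in WT. It passed as higher in both models (limma adjusted p = 6.7e-06 in EDL and 0.0010 in W/Wv), but no WT library reached 1 FPKM, so it entered the test through the models alone and a difference from WT was required of it. It was lower in W/Wv than in EDL (limma adjusted p = 0.016, above the threshold without EDL library 2 or 3 or W/Wv library 1 or 2, at 0.060 to 0.068). Adam3, a sperm surface protein, had 0.0414 FPKM in EDL, 0.0645 in W/Wv and 0.387 in WT and was too low to test. Among markers of other cell types, Car12, of clear and narrow cells, was at 35.5 to 38.8 FPKM in EDL and 50.5 to 55.7 FPKM in W/Wv, against 8.85 to 15.3 FPKM in WT. Pax2, of the efferent ducts, was at 23.4 to 24.9 FPKM in EDL and 20.4 to 24.8 FPKM in W/Wv, against at most 8.25 FPKM in WT, and Cftr, listed for the vas deferens and distal epididymis, at 3.07 to 3.42 and 4.02 to 4.63 FPKM in EDL and W/Wv, against 25.9 to 30.1 FPKM in WT. Each is 1 gene of its list, of 7, 5 and 6 genes, and their part in the Crisp1 and Crisp4 results was not tested. The 3 mast cell markers in the table summed to 0.628 to 0.823 FPKM in EDL, 0 in W/Wv and 0.498 to 0.660 FPKM in WT. The 7 principal cell markers in the table, which include Crisp1 and Crisp4, summed to 35217 to 37251 FPKM in EDL and 30518 to 32354 FPKM in W/Wv, against 46028 to 52947 FPKM in WT. Gpx5, Lcn8 and Lcn5 made up most of this sum. Lcn8 fell in both models where Lcn5 rose, with the values given above, so the sum does not measure how many principal cells were present.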

How the data were processed

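Per the labels' protocols, poly-A RNA of the caput was made into strand-specific libraries. The submitters' processing notes name TopHat2 2.1.1, Cufflinks 2.2.1 and mm10, as read here with neither role nor order. Per the file headers, the authors deposited 1 table of FPKM and of normalized counts, by gene and by library. The normalization, the annotation, the use of strand in counting and the choice of the 2462 genes have no statement in the sources used here. The deposited normalized count is a signal: reads scaled by a single factor in each library. Multiplied back, 98.8% to 99.0% of values per library lay within 0.1 of a whole number.

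Groups and replicate numbers came from the sample titles. The deposited FPKM were tested with limma 3.58.1 and R 4.3.3 (empirical Bayes, trended and robust) on log2(FPKM + 1), for the 2013 genes with 1 FPKM or more in at least 3 libraries. All 9 libraries entered 1 fit, and Benjamini-Hochberg adjustment covered every tested gene (threshold 0.05). Changes on this scale understate those of low genes. On the recovered reads, edgeR 4.0.16 called 1523, 1423 and 337 genes and DESeq2 1.42.0 called 1485, 1384 and 324 in EDL versus WT, W/Wv versus WT and W/Wv versus EDL, where limma called 1516, 1416 and 281. No 2 libraries of a group agreed within sampling noise (chi-square per gene 3.15 or more), and each counted as 1 replicate.

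Named genes were both members, CAP genes in the table, the 5 genes nearest to each member in profile, table genes within 500 kb, and up to 6 of the most abundant genes of each other list. The members and lists were chosen with earlier results of these data known. Of 2462 gene identifiers, 2454 matched the gene table of GRCm38.p6, from which coordinates were taken. Plots were drawn with matplotlib 3.10.9. The alternatives were other pseudocounts, filters and scalings, a fit restricted to both groups of a comparison, a replicate block, a plain empirical Bayes step, count models and leaving out each library.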

Additional observations from a re-analysis of the deposited data

How the results depend on the processing

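Under the 20 alternatives, the changes of Crisp1 in all 3 comparisons, and those of Crisp4 against WT kept their direction and stayed past the threshold. Several alternatives cannot move the change itself, only its adjusted p. These are the filters, the restricted fit, the replicate block, the plain empirical Bayes step and leaving out a library of the group not compared. Crisp1 ranged from -9.77 to -6.99 in EDL versus WT, from -7.70 to -6.42 in W/Wv versus WT and from 0.58 to 2.14 in W/Wv versus EDL (highest adjusted p = 0.011, limma without EDL replicate 3), and Crisp4 from -1.23 to -1.01 in EDL versus WT and from -1.21 to -0.98 in W/Wv versus WT. The small difference of Crisp4 in W/Wv versus EDL turned sign with 1 library left out, ranging from -0.042 to 0.11 (-0.042 without W/Wv replicate 1; adjusted p 0.64 to 0.97 over all alternatives), and did not pass under any alternative. The differences Crisp1 minus Crisp4 ranged from -8.59 to -5.96, from -6.61 to -5.41 and from 0.55 to 2.02 in the same order of comparisons and kept their direction, in a test too small to pass the threshold. The alternatives that cannot move the changes cannot move these differences either. The number of genes called in W/Wv versus EDL, 281, was 425 in a fit of only these groups and 172 to 388 with 1 library left out. It was 172 to 184 without EDL replicate 1, 2 or 3 or W/Wv replicate 1. Without W/Wv replicate 2 or 3 it was 205 and 206, and without a WT library 305 to 388. Gpx5 in EDL versus WT, -0.03 and not called, turned to 0.011 without EDL replicate 2 and 0.027 without WT replicate 3, in a range of -0.072 to 0.027 over the libraries left out, and its call in W/Wv was lost under 9 alternatives. In W/Wv versus EDL, values near 0 that were not called also turned sign: Ovch2 to -0.0197 under quantile normalization and between -0.0246 and 0.0212 with 1 library left out, and 9230104L09Rik between -0.0043 and 1.01.

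Libraries of the same number did not deviate together (correlations over genes of -0.34 to 0.08), so the numbers are not known to pair them. With the replicate block, limma called 1485, 1380 and 219 genes in EDL versus WT, W/Wv versus WT and W/Wv versus EDL, and both genes kept their calls (adjusted p = 0.0047 for Crisp1 in W/Wv versus EDL). Under the block, the paired exact test of Crisp1 minus Crisp4 cannot go below a p of 0.25, the value it gave. In W/Wv versus EDL, 58.5% of calls were higher after median-ratio scaling, against 49.8% in the deposited scaling. Depth limits Crisp1 in EDL, at 45 to 49 reads a library, and Crisp2 in both models.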
